A study of Mus musculus with 31 samples.

Results

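The nuclear genes for the subunits of the oxidative phosphorylation system were followed by complex in 4 populations of dendritic cells and macrophages from the mouse heart. Gene symbols beginning with Ndufa, Ndufb, Ndufc, Ndufs, Ndufv, Uqcr, Cox4 to Cox8 or Atp5, together with Sdha to Sdhd, were taken, assembly factors of the Ndufaf series and pseudogene symbols were dropped, and at least 10 counts in at least 3 of the 31 libraries were required. Of 24421 gene symbols, 85 matched and 82 were kept: 37 for complex I, 4 for complex II, 8 for complex III, 16 for complex IV and 17 for complex V. Cox7b2 and Cox8c were left out with 0 counts in all libraries, and Ndufs5 because only 1 library reached 10 counts (its highest count was 21). All 82 also passed the filter on low counts that preceded the tests. The subunits encoded by mitochondrial DNA are not analysed here.

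Hearts came from Balb/c mice of 8 to 12 weeks, either without surgery (steady state, SS) or with a myocardial infarction (MI) made by tying off the left anterior descending artery permanently. The study was about the activation of dendritic cells by infarction and the autoreactive T cells they prime. The 4 sorted populations were conventional dendritic cells of type 1 (cDC1) and type 2 (cDC2), monocyte-derived cells with CD11c (moDC) and without it (macrophages). Each combination of cell type and state had 4 RNA-seq libraries made from 4 ng of RNA, except MI cDC2 with 3. The sources used here name no gene deletion and no drug treatment for any group. The sources used here do not give the time after ligation, the sex of the mice, any sham surgery or the number of hearts behind a library, so SS and MI also differ in whatever handling the surgery brought.

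Oxidative phosphorylation joins 5 protein complexes of the inner mitochondrial membrane. Complex I oxidises NADH and complex II oxidises succinate. Both pass electrons through ubiquinone to complex III, and cytochrome c carries them on to complex IV, which reduces oxygen. The protons pumped by complexes I, III and IV drive complex V, the ATP synthase. The nuclear subunit genes are known to be transcribed together through factors such as NRF1 and the ETS family factor GABP, and several complex IV subunits exist as a widely expressed isoform and a second one found in heart, muscle, lung or testis. Dendritic cells and macrophages are known to shift between respiration and glycolysis when they are activated.

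Some short motifs were more frequent in the promoters of these genes than in promoters at large, each in a minority of them. RefSeq promoters (GRCm38.p6, 250 bases before to 50 after a transcription start) were found for 68 of the 82 genes, 74 promoters in all. The NRF1 motif (GCGCA, then any base, then GCGC), searched on both strands like the other motifs, was present in 17 of 74 (23%) against 1512 of 32851 RefSeq promoters of the same length (4.6%). The ETS motif CCGGAAG was present in 21.6% against 8.86%, the YY1 motif AAGATGG in 17.6% against 6.34%, and the hypoxia-response core ACGTG in 28.4% against 19.6%. These shares are a description of letters, and no binding was measured. Stretches of 60 bases around an NRF1 match are shown for genes of complexes I, II, IV and V that lie outside the GENCODE gene body. They are printed 5′ to 3′ on the gene's strand with the match in capitals.
Ndufa11 (complex I, chr17:56717677-56717736, plus strand): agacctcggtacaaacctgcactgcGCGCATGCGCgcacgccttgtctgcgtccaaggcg
Sdha (complex II, chr13:74350304-74350363, minus strand): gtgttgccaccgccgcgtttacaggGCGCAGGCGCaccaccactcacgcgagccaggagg
Sdhd (complex II, chr9:50603894-50603953, minus strand): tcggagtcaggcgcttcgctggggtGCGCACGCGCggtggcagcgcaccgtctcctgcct
Cox6a1 (complex IV, chr5:115349086-115349145, minus strand): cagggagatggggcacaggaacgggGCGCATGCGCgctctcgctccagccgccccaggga
Atp5h (complex V, chr11:115420026-115420085, minus strand): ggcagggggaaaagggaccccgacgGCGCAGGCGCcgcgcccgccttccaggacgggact

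Values are counts scaled to the reads in genes of each library (CPM), with TMM factors. Reads in genes numbered 9148624 to 16531349 per library. The share of counted entries in no annotated feature was 6.42% to 16.9%, and in SS it was higher in the libraries numbered 1 and 4 of every cell type than in those numbered 2 and 3, so SS results are also given on each pair alone. Markers of cDC1 and cDC2 followed the labels. The 8 cDC1 markers summed to 10264 to 12625 CPM in cDC1 libraries and to at most 1121 CPM elsewhere. The 7 cDC2 markers were highest in cDC2 (4566 to 6310 CPM). Markers of monocytes and macrophages (9 genes, none at 0 in any group) did not set SS cDC2 apart from SS macrophages. They summed to 18613 to 30983 CPM in SS cDC2, 23347 to 29510 in SS macrophages and 22937 to 31922 in SS moDC. In SS cDC1 they summed to 3570 to 3887 CPM. In MI cDC2 they summed to 6038 to 9246 CPM, so SS and MI cDC2 differed in more than state. A gene counted as changed at an adjusted p under 0.05 over 13039 genes (edgeR quasi-likelihood test), and SE is the standard error of a log2 fold change.

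Macrophages had the lowest mean summed level of the 82 genes in both states, and the highest was in cDC2 in SS and in cDC1 in MI. The sum was 7335 ± 1398 CPM in SS macrophages and 7398 ± 547 in MI macrophages (SD, n = 4 each). It was 9325 ± 1079 in SS moDC and 9514 ± 289 in MI moDC (n = 4 each). SS cDC1 held 9720 ± 1109 CPM and MI cDC1 10824 ± 1041 (n = 4 each), whereas SS cDC2 held 10844 ± 1481 (n = 4) and MI cDC2 9030 ± 1064 (n = 3). After MI no macrophage library (highest 8150 CPM) reached any moDC (lowest 9146) or cDC1 library (lowest 9553), but the lowest MI cDC2 library (7802) lay below the highest macrophage library. In SS the macrophage libraries (6020 to 9144 CPM) overlapped those of moDC, and those of cDC1, while all SS cDC2 libraries (lowest 9517) were above them. These are levels relative to all other transcripts, and in bulk libraries fewer cells of a type and less RNA per cell cannot be told apart.

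**Figure D1:**
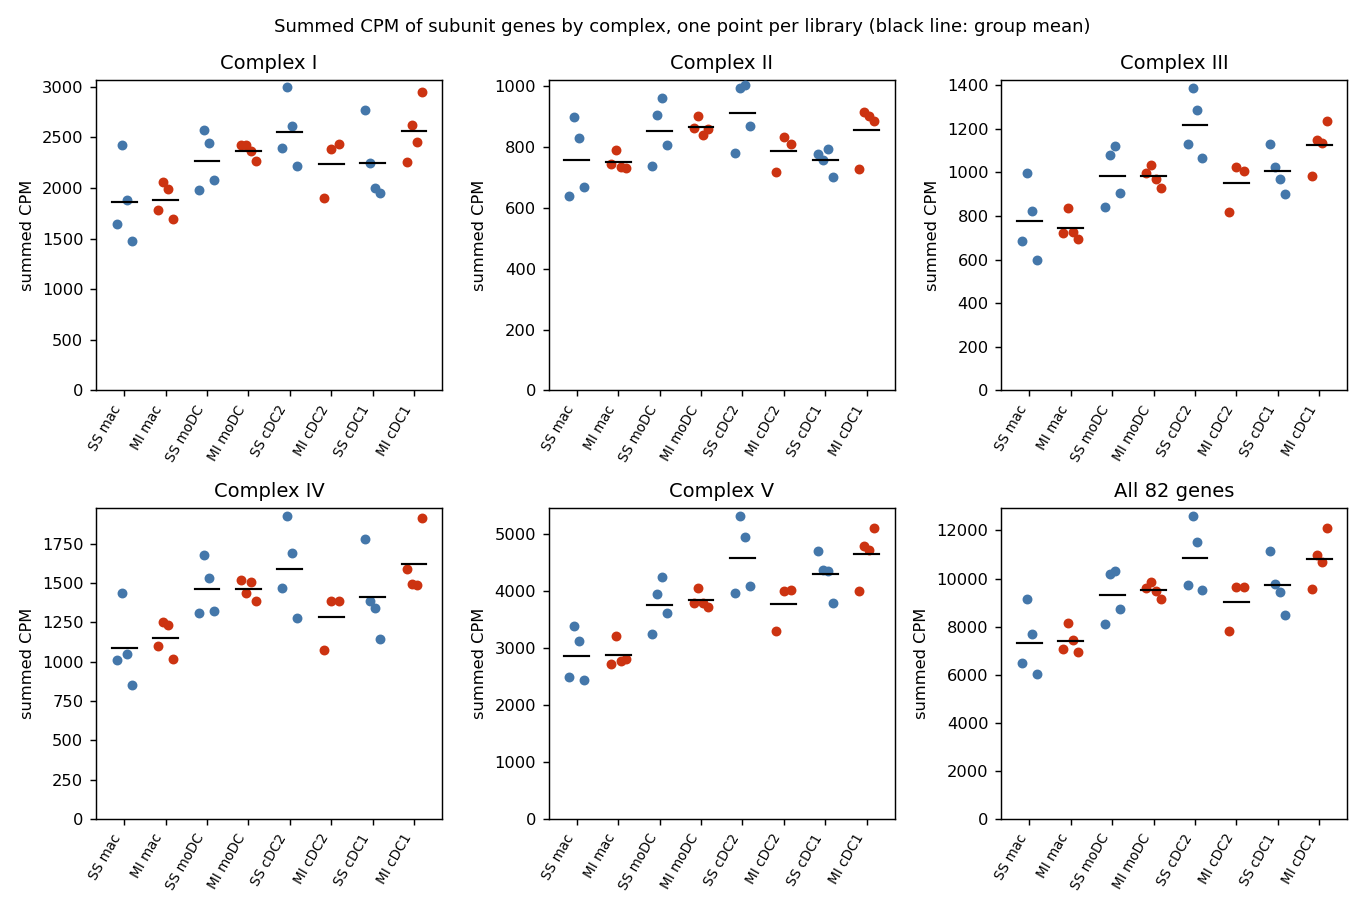
Summed CPM (vertical axis, from 0) of the genes of each complex and of all 82 genes in the 8 groups (horizontal axis). Each point is a library (blue SS, red MI) and black lines are group means; macrophages are lowest in complexes I, III, IV and V, and complex II runs from a mean of 750 in MI macrophages to 912 in SS cDC2.

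Not all complexes differed by the same factor between cDC1 and macrophages. The summed level of complex V was 1.51 times higher in cDC1 than in macrophages in SS and 1.62 times higher in MI, with no overlap between libraries in either state. For complex III the ratios were 1.299 and 1.51, for complex IV 1.298 and 1.41, and for complex I 1.21 and 1.36, with overlapping libraries in SS and none in MI. Complex II, whose enzyme also belongs to the tricarboxylic acid cycle, had ratios of 1.00 in SS and 1.14 in MI, and its libraries overlapped in both states. Accordingly complex II made up 10.4% ± 0.63 of the summed CPM in SS macrophages and 7.84% ± 0.64 in SS cDC1 (SD, n = 4). Its share ran from 9.72% to 11.1% over the 8 macrophage libraries and from 6.97% to 8.43% over the 8 cDC1 libraries. Complex V held 37.0% to 40.4% in macrophages and 41.9% to 46.0% in cDC1. A share of the sum does not depend on the scaling of a library, and no test was made of it. Sums and shares weigh abundant genes most. Atp5b alone went from 810 CPM in SS macrophages to 1502 in SS cDC1, where the complex V sum went from 2854 to 4299. Median log2 fold changes per gene in SS were 0.39 for complex V, 0.33 for IV, 0.30 for III, 0.28 for I and -0.03 for II. In MI they were 0.54, 0.39, 0.43, 0.43 and 0.09.

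Levels per length of mature transcript (CPM divided by the length of all annotated exons, in kb, median of the 8 group means) ranked the subunits within the cells. Atp5b, the catalytic beta subunit of ATP synthase, was highest with 592 CPM per kb, followed by Cox4i1 (452), Cox6a1 (317) and Atp5a1, the alpha subunit (296). The medians were 159 CPM per kb for complex V, 120.4 for complex II, 116 for complex III, 84.3 for complex IV and 54.5 for complex I. That of complex IV covers 16 genes, of which 11 reached 10 CPM, the others being tissue isoforms at trace levels. That of complex V covers 16 genes. It includes Atp5s and Atp5sl, which are not structural subunits, and leaves out Atp5o, for which no length was found. Among complex I genes Ndufa4, now assigned by structure to complex IV, was highest (144 CPM per kb), and the NADH-binding subunit Ndufv1 and the large iron-sulphur subunit Ndufs1 had 66.2 and 20.97. The 3 genes for the c subunit of the ATP synthase rotor give the same mature protein, and Atp5g3 (241 CPM per kb) exceeded Atp5g2 (155) and Atp5g1 (25.02), the last divided by 4.91 kb of annotated exon that may include rarely used parts.

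Of the cell type comparisons tested, cDC1 against macrophages had the most subunit genes called, among them the electron-transfer subunit of complex III, the gamma and beta subunits of complex V and the complex I accessory subunit Ndufa6; cDC2 against macrophages was not tested. In SS 26 of the 82 genes were higher in cDC1 and 6 lower, where 20.9% of all tested genes were higher, 21.9% lower and 42.8% either (39.0% of the 82). In MI 46 were higher and 2 lower, against 21.0% higher, 24.5% lower and 45.4% either over all genes (58.5% of the 82). The median log2 fold change of the 82 was 0.32 in SS and 0.44 in MI, and that of all genes was -0.02 and -0.05. Of the genes higher in SS, 23 of 26 (88.5%) were also higher in MI, which is 50% of the MI list of 46. The SS and MI libraries are separate samples. How many of all tested genes were higher in both states was not counted, so 88.5% has no general rate beside it. By complex, the genes higher in MI were 19 of 37 for complex I, 1 of 4 for II, 4 of 8 for III, 9 of 16 for IV and 13 of 17 for V.

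**Figure D2:**
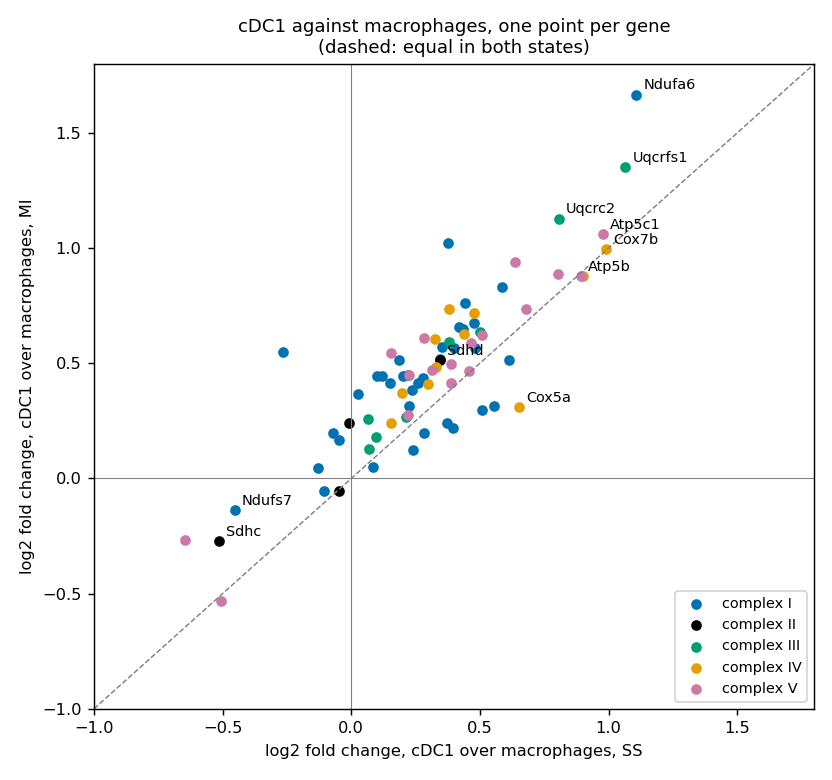
Log2 fold change of cDC1 over macrophages in SS (horizontal axis) and in MI (vertical axis), 1 point per gene, coloured by complex, with the line of equal change dashed. Of the 82 genes 76 are inside the axes, and Ndufa6, Uqcrfs1, Uqcrc2 and Atp5c1 stand at the upper right, while Sdhc and Ndufs7 are below 0 in both states; the 6 outside are low-count isoforms.

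Uqcrfs1 encodes the Rieske iron-sulphur protein, through which complex III passes electrons to cytochrome c. In macrophages it had 78.0, 111, 95.04 and 70.8 CPM in SS and 99.8, 109.7, 80.4 and 75.9 in MI. In cDC1 it had 202, 176, 186 and 178 CPM in SS and 196, 234, 268.5 and 234 in MI. Every cDC1 library was above every macrophage library. The log2 fold change was 1.06 (SE 0.14, adjusted p = 7.22e-08) in SS and 1.35 (SE 0.14, adjusted p = 4.96e-10) in MI. The core protein gene Uqcrc2 moved with it, by 0.81 (adjusted p = 3.02e-05) in SS and 1.13 (adjusted p = 1.11e-07) in MI. Its partner Uqcrc1, the other core protein and the complex III gene with the highest level, did not pass in either state.

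Ndufa6, an accessory subunit of complex I that binds the mitochondrial acyl carrier protein, had 38.9, 54.99, 40.0 and 28.8 CPM in SS macrophages and 38.4, 45.3, 38.7 and 38.4 in MI macrophages. In cDC1 it had 132, 78.3, 68.8 and 70.8 CPM in SS and 113.5, 123, 131 and 143 in MI. The cDC1 and macrophage libraries did not overlap in either state, although SS cDC1 replicate 1 stood above the other 3. The log2 fold change was 1.11 (SE 0.19, adjusted p = 1.34e-05) in SS and 1.67 (SE 0.19, adjusted p = 9.86e-09) in MI. The core subunit Ndufs7, at the site where complex I reduces ubiquinone, went the other way in SS, with 81.4 ± 11.2 CPM in macrophages and 59.5 ± 6.06 in cDC1 (log2 fold change -0.45, adjusted p = 0.00260). In MI Ndufs7 did not pass.

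Within complex V the gamma subunit Atp5c1, the central stalk of ATP synthase, had 178 to 266 CPM in SS macrophages and 383 to 451 in SS cDC1. In MI it had 197 to 235 CPM in macrophages and 380 to 503 in cDC1. Its log2 fold changes were 0.98 (SE 0.13, adjusted p = 1.66e-07) in SS and 1.06 (SE 0.13, adjusted p = 3.09e-08) in MI. Atp5b was higher too, going from 810 ± 136 CPM in SS macrophages to 1502 ± 122 in SS cDC1 and from 826 ± 77.9 to 1517 ± 149 in MI (log2 fold changes 0.89 and 0.88, adjusted p = 4.11e-07 and 4.86e-07). The alpha subunit Atp5a1, which alternates with the beta subunit in the catalytic head, was higher in cDC1 in MI alone (log2 fold change 0.45, adjusted p = 0.00223), and whether that differed from SS was not tested. Atp5sl, which follows the symbol rule but is not a structural subunit, was lower in SS cDC1 (16.1 ± 2.25 against 25.2 ± 4.84 CPM, adjusted p = 0.0129).

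In complex IV the small subunit Cox7b had 38.2 ± 14.8 CPM in SS macrophages and 75.7 ± 14.7 in SS cDC1 (log2 fold change 0.99, adjusted p = 1.98e-04), and 1.00 in MI (adjusted p = 1.61e-04). Cox6c, another small subunit, was higher by 0.90 in SS (adjusted p = 7.23e-04) and 0.88 in MI (adjusted p = 8.38e-04). Complex II split within itself. The membrane anchor Sdhd was higher in cDC1 by 0.34 in SS (adjusted p = 0.0407) and 0.51 in MI (adjusted p = 0.00231), whereas the other anchor, Sdhc, was lower in SS (94.5 ± 4.96 against 135 ± 42.7 CPM, adjusted p = 0.00553). The flavoprotein Sdha and the iron-sulphur subunit Sdhb did not pass in either state. The SS call of Sdhd was lost without any one of SS macrophage replicates 1 and 4 and SS cDC1 replicates 1 and 3, and those of Sdhc and Atp5sl without SS macrophage replicate 2 (adjusted p 0.0514 to 0.222 for Sdhd). With SS numbers 1 and 4 alone Ndufs7, Sdhc and Atp5sl did not pass, and with numbers 2 and 3 alone Cox6c and Sdhd did not. The 2 genes lower in MI cDC1 were Cox6a2 and Ndufa4l2, both at trace levels.

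Calls of Uqcrfs1, Uqcrc2, Ndufa6, Atp5c1, Atp5b and Cox7b in cDC1 against macrophages were kept in both states under every alternative that was run. The SS count moved from 26 higher and 6 lower to 42 and 0 with SS libraries numbered 1 and 4 alone and to 12 and 4 with numbers 2 and 3 alone, and it was 15 and 6 without any one of SS macrophage replicate 1, SS macrophage replicate 4 and SS cDC1 replicate 1; the MI count was 30 and 1 without MI cDC1 replicate 4.

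**Figure D3:**
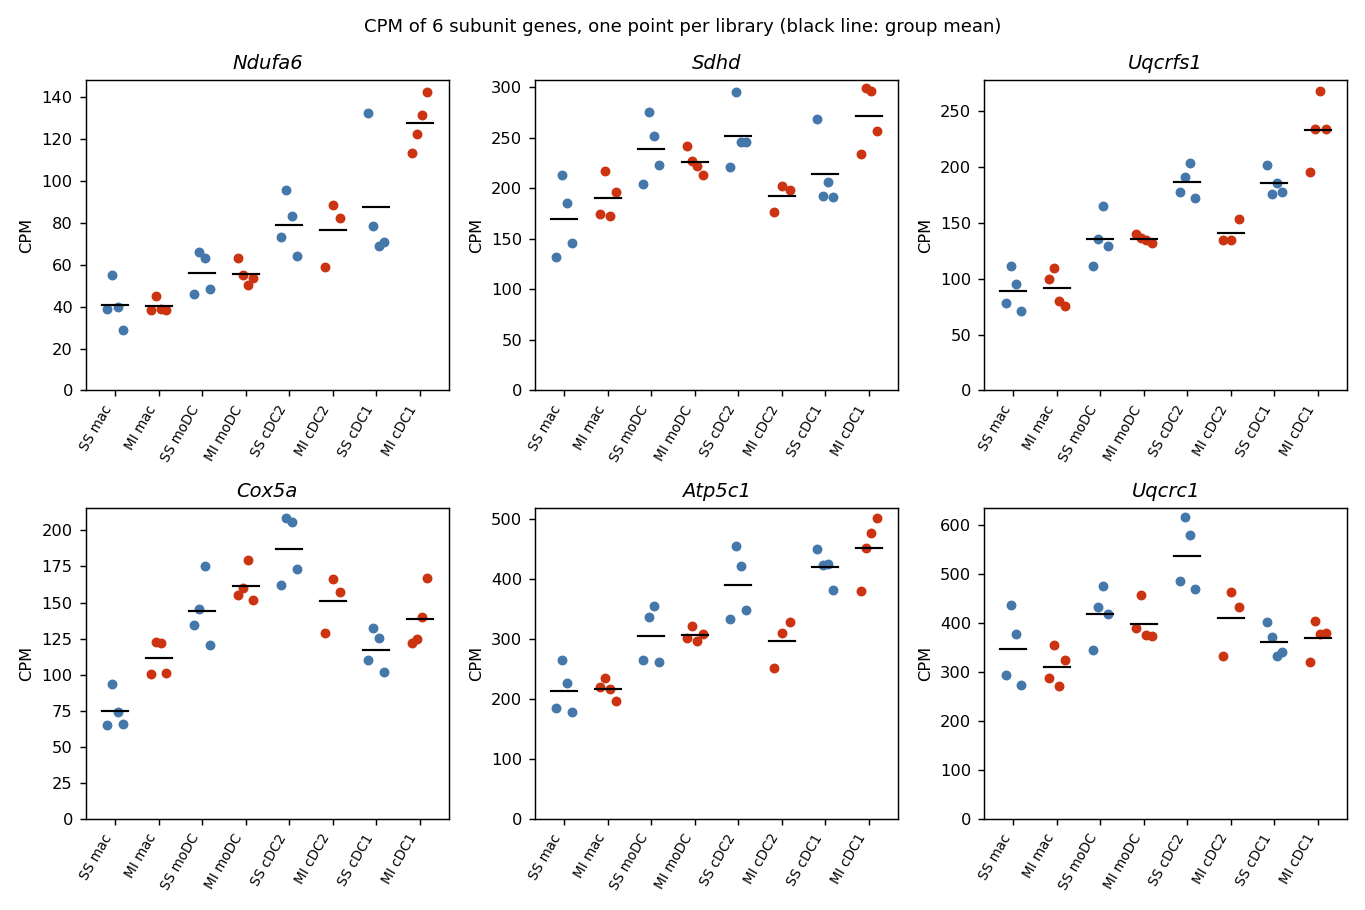
CPM (vertical axis, from 0) of Ndufa6, Sdhd, Uqcrfs1, Cox5a, Atp5c1 and Uqcrc1 in the 8 groups (horizontal axis), 1 point per library (blue SS, red MI) with group means as black lines. Ndufa6 and Atp5c1 are lowest in macrophages, Cox5a is lowest in SS macrophages, and Uqcrc1 is highest in SS cDC2.

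Monocyte-derived cells with CD11c exceeded those without it in the same direction. In SS 15 of the 82 genes were higher in moDC and 0 lower (12.9% of all genes differed, 8.56% higher and 4.34% lower), and in MI 11 were higher and 0 lower (10.8% of all genes, 6.65% higher and 4.17% lower). Unadjusted p under 0.05 was reached by 35 and 40 of the 82. The 15 came from complexes I (4), II (1), III (1), IV (3) and V (6), and the 11 from I (3), III (2), IV (1) and V (5). Atp5b, Atp5c1, Atp5d, Cox5a, Ndufb6 and Uqcrfs1 were in both, 40% of the SS list and 54.5% of the MI list. The matching overlap over all tested genes was not counted. This comparison and the one with cDC1 share the macrophage libraries.

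Cox5a, a matrix-side subunit of complex IV, led the SS comparison of moDC with macrophages. It had 65.3, 93.3, 74.4 and 65.9 CPM in SS macrophages against 135, 146, 175 and 120.3 in SS moDC, with no overlap (log2 fold change 0.95, SE 0.14, adjusted p = 7.83e-06). In MI it had 100.5, 123, 122 and 101.3 CPM in macrophages against 155, 160.2, 179 and 151 in moDC (log2 fold change 0.53, SE 0.14, adjusted p = 0.00871). Uqcrfs1 was higher by 0.61 in SS (adjusted p = 0.00177) and 0.57 in MI (adjusted p = 0.00387), and the complex I accessory subunit Ndufa10 by 0.63 in SS (adjusted p = 7.23e-04), a call lost with SS numbers 1 and 4 alone. Same-numbered SS macrophage and moDC libraries deviated together, but the calls and p-values above come from a fit without pairing. With the replicate number as a block within each state the SS count was 24 (20 with a common block). The SS count was 7, 34, 8 and 4 without SS macrophage replicate 1, 2, 3 or 4, and 8 and 6 without SS moDC replicate 2 or 3, 8 with SS numbers 1 and 4 alone and 4 with numbers 2 and 3 alone; the MI count was 6, 5 and 4 without MI macrophage replicate 1, 3 or 4 and 7, 5, 6 and 7 without MI moDC replicate 1, 2, 3 or 4.

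Between cDC2 and moDC few of the genes differed. In SS 3 of the 82 were higher in cDC2 and 0 lower (15.4% of all genes differed, 7.35% higher and 8.05% lower): Uqcrc2 (172 ± 12.9 against 118 ± 27.1 CPM, adjusted p = 0.00961), Uqcrfs1 (186 ± 14.1 against 135 ± 22.2, adjusted p = 0.0167) and Atp5b (log2 fold change 0.38, adjusted p = 0.0338). In MI 0 were higher and 2 lower (10.1% of all genes, 4.49% higher and 5.66% lower): Ndufa12, an accessory subunit of complex I (36.8 ± 4.64 against 51.7 ± 4.16 CPM, adjusted p = 0.0466), and Cox6a2, at under 2 CPM in every library of both groups (adjusted p = 0.0220). The SS count was 5, 1 and 7 without SS cDC2 replicate 1, 3 or 4 and 8 without SS moDC replicate 3. Uqcrfs1 was lost without SS moDC replicate 1 or SS cDC2 replicate 3, and Atp5b without SS moDC replicate 1, 2 or 4 or SS cDC2 replicate 2 or 3. The MI count was 0 without MI cDC2 replicate 1 or 2 and 1 without MI cDC2 replicate 3 or MI moDC replicate 1, 2 or 4.

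The order of the 2 conventional dendritic cell types was not the same in the 2 states. In SS 0 of the 82 genes were higher in cDC1 and 7 lower than in cDC2, where 28.2% of all genes differed, 11.7% higher and 16.4% lower. In MI 15 were higher in cDC1 and 1 lower, where 26.8% of all genes differed, 10.6% higher and 16.2% lower. None of these genes was called in both states, and how many of all tested genes were was not counted. The median log2 fold change of the 82 was -0.16 in SS (all genes 0.02) and 0.30 in MI (all genes -0.01).

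Genes lower in SS cDC1 included Uqcrc1, which had 403, 372, 332 and 340 CPM in SS cDC1 and 486, 617, 579 and 469 in SS cDC2, with no overlap (log2 fold change -0.57, SE 0.14, adjusted p = 0.00154). Cox5a was lower by a log2 fold change of -0.67 (117 ± 14.05 against 187 ± 23.1 CPM, adjusted p = 2.30e-04), and Sdhb, Ndufs7, Atp5a1 and Cox6b2 were also lower. In MI the genes higher in cDC1 included Uqcrfs1 (233 ± 29.8 against 141 ± 10.7 CPM, adjusted p = 2.25e-04), Atp5c1 (453 ± 53.0 against 297 ± 39.8, adjusted p = 0.00104), Ndufs4, a subunit of the NADH-oxidising arm of complex I (57.6 ± 7.72 against 31.8 ± 1.93, adjusted p = 0.00180), Ndufa6 (adjusted p = 0.00645), Cox6c (adjusted p = 0.00849) and Sdhd (adjusted p = 0.0112). Atp5sl was the 1 lower (adjusted p = 0.00679). Without MI cDC2 replicate 1 the calls of Ndufa6, Cox6c and Sdhd were lost, and without MI cDC2 replicate 3 that of Atp5sl. In SS, leaving out cDC1 replicate 4 ended the calls of Sdhb and Atp5a1, and leaving out cDC2 replicate 2 or 3 that of Atp5a1. The SS count was 1 with SS numbers 1 and 4 alone, 18 with numbers 2 and 3 alone, 15 without SS cDC1 replicate 1, 4 without SS cDC1 replicate 4 and 11 without SS cDC2 replicate 4, and the MI count was 6 higher and 1 lower without MI cDC2 replicate 1. With no scaling factors the SS medians of complexes III, IV and V changed sign (0.06, 0.00 and 0.04 against -0.07, -0.14 and -0.10), as that scaling moved the median of all genes to 0.14.

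MI itself changed few of the 82 genes in any cell type, fewer than the share of all genes that changed. In macrophages 1 rose and 0 fell (1.22% of the 82; 7.39% of all genes, 4.01% higher and 3.37% lower), with a median log2 fold change of 0.02. In moDC 0 of 82 passed the edgeR test (4.84% of all genes, 1.52% higher and 3.32% lower), 4 reached an unadjusted p under 0.05, DESeq2 called 1, and the median was 0.03. In cDC1 1 rose and 1 fell (2.44%, against 8.87% of all genes, 2.16% higher and 6.72% lower), and in cDC2 0 rose and 2 fell (2.44%, against 11.0% of all genes, 4.41% higher and 6.63% lower). The 95% interval of the fold change lay within 2-fold in either direction for 74 of the 82 genes in macrophages and for 75 in each of the other 3 cell types. The small medians in macrophages and moDC turned to -0.05 and -0.01 with upper-quartile scaling.

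**Figure D4:**
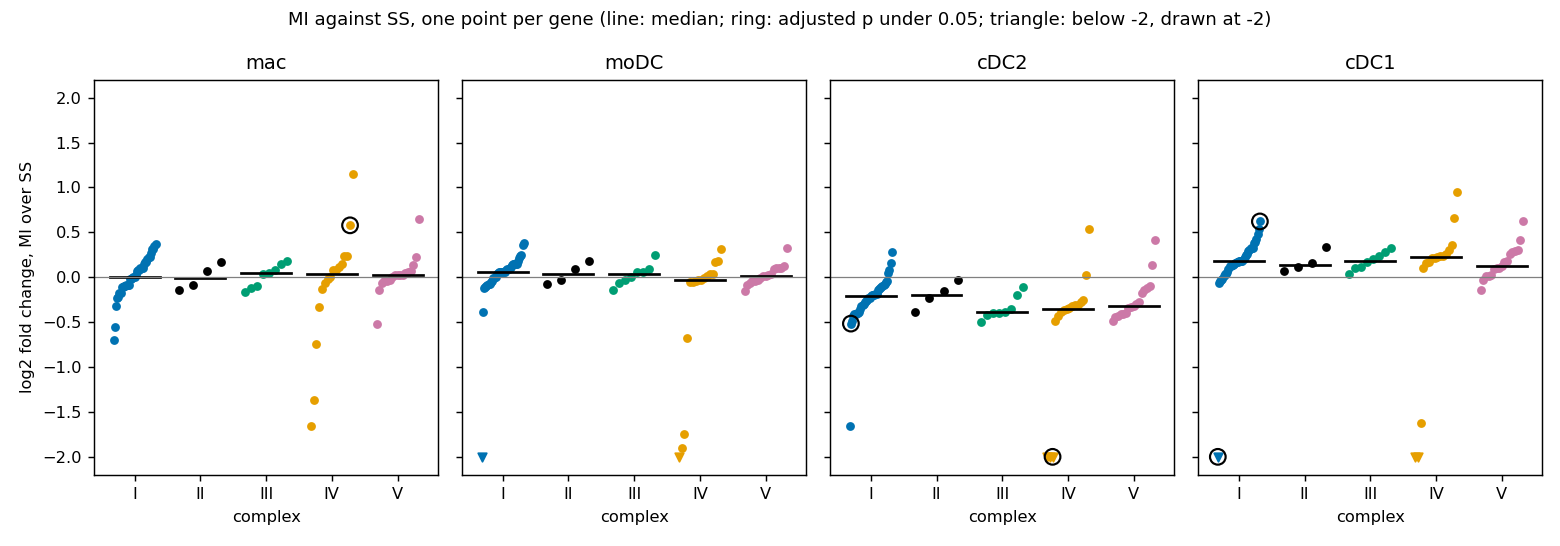
Log2 fold change of MI over SS (vertical axis) for each of the 82 genes by complex (horizontal axis) in the 4 cell types, with medians as black lines, rings for genes past the test and triangles at -2 for values below it. Medians are near 0 in macrophages and moDC, below 0 in every complex of cDC2 and above 0 in every complex of cDC1.

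In macrophages the gene that rose was Cox5a, from 65.3, 93.3, 74.4 and 65.9 CPM in SS to 100.5, 123, 122 and 101.3 in MI, with no overlap (log2 fold change 0.58, SE 0.14, adjusted p = 0.00685). Its change was 0.17 in moDC (adjusted p = 0.593), 0.24 in cDC1 (adjusted p = 0.345) and -0.31 in cDC2 (adjusted p = 0.182). Cox5a was the only 1 of the 82 genes for which the MI effect differed among the 4 cell types (F test, adjusted p = 0.0282), where 6.80% of all genes differed. The macrophage call did not pass against SS numbers 2 and 3 alone (adjusted p = 0.0812), and without SS macrophage replicate 2 a second gene was called. The difference among cell types did not pass without any one of 8 libraries, MI macrophage replicates 2 and 3, SS macrophage replicates 1 and 4, MI cDC2 replicates 1 and 3 and SS cDC2 replicates 2 and 3 (adjusted p 0.0519 to 0.109, 0 genes called); 3 genes were called without SS cDC1 replicate 1 and 2 without SS macrophage replicate 2.

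In cDC1 Ndufc2, an accessory subunit in the membrane arm of complex I, rose from 59.8, 63.7, 56.8 and 56.8 CPM in SS to 86.4, 93.7, 82.8 and 102 in MI, with no overlap (log2 fold change 0.62, SE 0.16, adjusted p = 0.0112). Its changes in macrophages (0.35), moDC (0.38) and cDC2 (0.29) were also positive and did not pass. Of the 82 genes 72 had a positive log2 fold change in cDC1, with medians of 0.18 for complex I, 0.14 for II, 0.19 for III, 0.22 for IV and 0.12 for V, and 13 reached an unadjusted p under 0.05. The median of all tested genes in cDC1 was -0.03. The summed levels of SS and MI cDC1 overlapped in all 5 complexes. With SS numbers 2 and 3 alone Ndufc2 did not pass (adjusted p = 0.0522), and without SS cDC1 replicate 1 the count was 4 higher and 1 lower.

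The gene that fell in cDC1 was Ndufa4l2, a hypoxia-induced relative of Ndufa4, at 6.37, 6.16, 1.19 and 1.36 CPM in SS and 0, 0, 0.371 and 0 in MI (4 counts in all MI libraries, adjusted p = 0.00836). Markers of mural cells, the pericytes and smooth muscle cells of vessels, were lower beside it: 12 genes summed to 94.4 to 332 CPM in SS cDC1 and to 0.922 to 2.96 in MI cDC1, where Kcnj8, Cspg4, Myh11, Vtn and Higd1b were at 0. In moDC these 12 genes summed to 64.3 to 360 CPM in SS and to 14.3 to 17.5 in MI. Their part in the result was not tested. Ndufa4l2 also overlaps Shmt2 on the opposite strand (chromosome 10, 127514967 to 127517154), and no source used here gives the use of strand in counting. Shmt2 had 40.0 to 61.3 CPM over the 8 cDC1 libraries, and its SS and MI libraries overlapped.

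In cDC2 the direction was the opposite: 74 of the 82 genes had a negative log2 fold change after MI, with medians of -0.21 for complex I, -0.19 for II, -0.39 for III, -0.35 for IV and -0.32 for V, and 24 reached an unadjusted p under 0.05. The median of all tested genes in cDC2 was -0.03. Past the adjusted threshold were Ndufa13, a complex I subunit also known as GRIM-19, with 79.0, 93.3, 83.7 and 71.2 CPM in SS and 48.9, 56.3 and 66.4 in MI (log2 fold change -0.52, SE 0.17, adjusted p = 0.0487), and Cox6a2, discussed with the tissue isoforms. The summed level of complex III was 1066 to 1384 CPM in SS and 819 to 1023 in MI, without overlap, while those of the other complexes overlapped. That separation depended on the TMM factors. Without factors complex III was 1107 ± 76.7 CPM in SS and 966 ± 107 in MI, and the libraries overlapped. The ratio of MI to SS was 0.781 with factors and 0.872 without. Uqcrc1 had 469 to 617 CPM in SS and 332 to 463 in MI (log2 fold change -0.39, adjusted p = 0.0857), and Uqcrfs1 173 to 204 CPM in SS and 135 to 154 in MI (-0.40, adjusted p = 0.0718); neither passed. Beside this, the monocyte and macrophage markers given above were lower in MI cDC2, and their part in the result was not tested.

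How many genes were called in cDC2 depended on which SS libraries were used. The summed CPM of the 82 genes was 9725, 12603, 11532 and 9517 in SS cDC2 replicates 1 to 4, and 7802, 9631 and 9657 in MI. With SS numbers 2 and 3 alone 26 genes fell, with numbers 1 and 4 alone 0, and with the replicate number as a block 11; the count was 0 without MI cDC2 replicate 1 or 2 or SS cDC2 replicate 2, 1 without SS cDC2 replicate 3 and 4 without SS cDC2 replicate 4. SS cDC2 replicates 2 and 3 also had the lowest TMM factors (0.867 and 0.877), and without factors the median of the 82 was -0.14 where all genes had 0.12.

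The opposite directions in cDC1 and cDC2 were compared by the difference of their MI effects, a test added after these values were seen. The median difference (cDC1 minus cDC2) was 0.45 for the 82 genes and -0.02 for all genes, and it was positive for 80 of 82. After adjustment 2 genes passed (4.21% of all genes did, 1.60% higher in cDC1 and 2.61% lower) and 30 reached an unadjusted p under 0.05. Uqcrfs1 had a difference of 0.73 (SE 0.20, adjusted p = 0.0272), being 186 ± 11.6 in SS and 233 ± 29.8 CPM in MI cDC1 against 186 ± 14.1 and 141 ± 10.7 in cDC2. For Sdhd, whose promoter stretch with the NRF1 match is given above, the difference was 0.72 (SE 0.20, adjusted p = 0.0313), with 215 ± 36.3 and 271 ± 31.6 CPM in cDC1 against 252 ± 31.0 and 193 ± 13.8 in cDC2. The count was 19 with SS numbers 2 and 3 alone and 0 with numbers 1 and 4 alone; it was 9 and 5 without SS cDC1 replicate 1 or SS cDC2 replicate 4, 0 without MI cDC2 replicate 1, MI cDC1 replicate 3 or SS cDC1 replicate 2, and 1 without MI cDC2 replicate 2 or 3, SS cDC1 replicate 3 or 4, or SS cDC2 replicate 2 or 3.

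Where complex IV has a widely expressed and a tissue isoform, the widely expressed one supplied nearly all reads in each of the 31 libraries. Cox4i1 had 217 to 454 CPM and Cox4i2, the lung and hypoxia isoform, 0 to 4.62. Cox6a1 had 121 to 262 CPM and Cox6a2, the heart and muscle isoform, 0 to 10.8. Cox8a had 107 to 209 CPM and the heart isoform Cox8b 0 to 2.76. Cox7a1, also a heart and muscle isoform, reached 5.20 CPM, against 38.7 to 100.2 for Cox7a2, and the testis isoform Cox6b2 reached 5.39, against 74.0 to 193 for Cox6b1. The same held for Ndufa4 (54.4 to 155 CPM) against Ndufa4l2 (0 to 10.8).

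**Figure D5:**
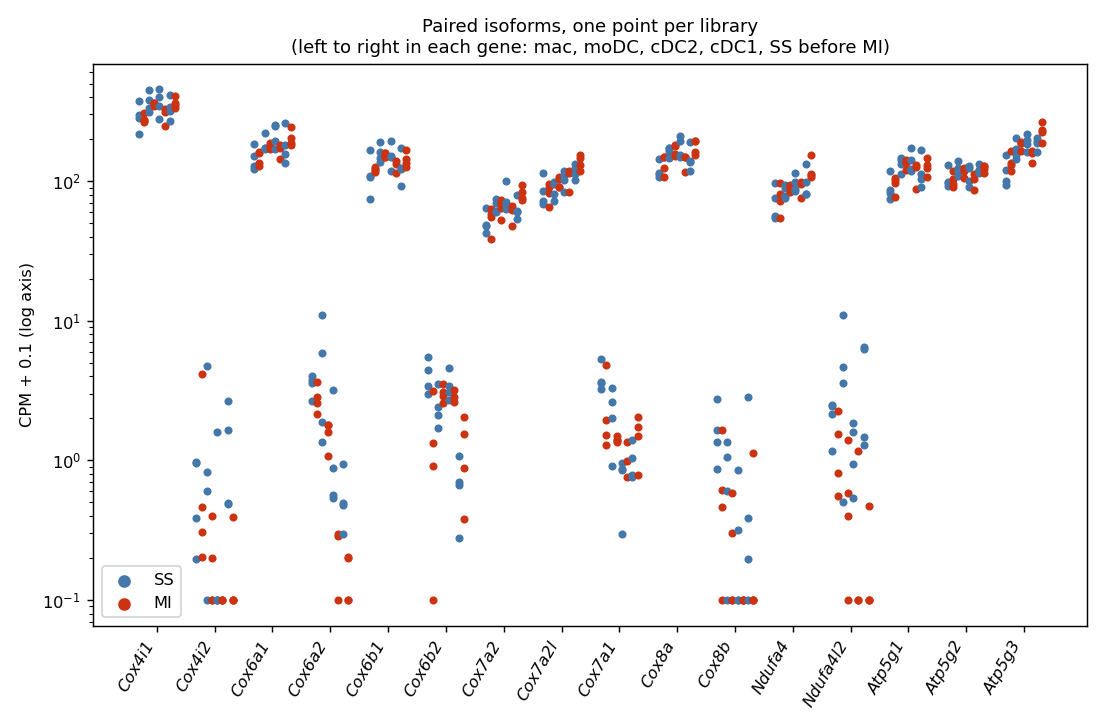
CPM plus 0.1 on a log axis (vertical) for isoform pairs and groups (horizontal), 1 point per library (blue SS, red MI), with the 8 groups from left to right inside each gene. Cox4i2, Cox6a2, Cox6b2, Cox7a1, Cox8b and Ndufa4l2 lie below 11 CPM in all 31 libraries, and their widely expressed partners above 38.

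The traces of heart and muscle isoforms were not spread evenly. Cox6a2 had its highest mean in SS moDC, where libraries ranged widely (1.26, 5.77, 10.8 and 1.798 CPM). Cox6a2 was at 2.57, 3.92, 3.47 and 3.69 CPM in SS macrophages and 0.841, 0.379, 0.397 and 0.195 in SS cDC1 (adjusted p = 0.00396), and Cox7a1 at 3.85 ± 0.92 CPM in SS macrophages against 0.895 ± 0.29 in SS cDC1 (adjusted p = 0.00793); with SS numbers 1 and 4 alone neither passed. In cDC2 Cox6a2 was at 0.785, 3.09, 0.438 and 0.468 CPM in SS and 0.188, 0.198 and 0 in MI, 4 counts in all MI libraries (adjusted p = 0.0374, and 0.227 without SS cDC2 replicate 2). Cardiomyocyte markers also differed among these groups: 15 genes, leaving out Atp2a2, which these cells express, summed to 197 to 278 CPM in SS macrophages, 94.0 to 251 in SS moDC, 37.3 to 69.2 in SS cDC1, 19.6 to 35.2 in SS cDC2 and 6.15 to 14.2 in MI cDC2, with Myh6 at 0 in SS cDC2 and Ckmt2 at 0 in MI cDC2. Their part in these differences was not tested. Cox6a2 overlaps Itgad on the opposite strand (chromosome 7, 128205435 to 128206387), and Itgad was at 0 CPM in all SS macrophage libraries. Itgad was at 2.03 CPM in SS moDC replicate 3 and 1.81 in SS cDC2 replicate 2, where Cox6a2 was highest in each group. It was at 0 in SS moDC replicate 2, where Cox6a2 was at 5.77 CPM. In MI cDC2 replicate 2 Itgad was at 1.98 CPM and Cox6a2 at 0.198. The part of this overlap in the Cox6a2 values was not tested.

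Beyond the subunits, partner genes were followed in lists. Electron carriers and transporters (10 genes) gave 5 higher and 0 lower in SS cDC1 against macrophages and 6 and 0 in MI. Of all genes 42.8% differed in SS (20.9% higher) and 45.4% in MI (21.0% higher). Cytochrome c (Cycs) was highest in cDC1, at 321 ± 45.6 CPM in SS against 77.5 ± 12.7 in macrophages (adjusted p = 1.24e-12). After MI in cDC2 the list had 0 higher and 2 lower, where 11.0% of all genes differed. The 2 were Cycs (160 ± 28.8 against 234 ± 26.9 CPM, adjusted p = 0.0265) and the ADP/ATP carrier Slc25a5 (526 ± 29.8 against 922 ± 93.3, adjusted p = 7.18e-05). In cDC1 after MI 1 rose, where 8.87% of all genes differed. It was Atpif1, the natural inhibitor of ATP synthase (263 ± 42.1 against 179 ± 31.4 CPM, adjusted p = 0.0256).

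Tricarboxylic acid cycle and pyruvate dehydrogenase genes (17) gave 7 higher and 1 lower in cDC1 against macrophages in each state. That is 8 of 17, where 42.8% (SS) and 45.4% (MI) of all genes differed. Citrate synthase, Cs, had the smallest adjusted p among them (351 ± 4.26 against 148 ± 13.7 CPM in SS, adjusted p = 7.19e-12). Malate dehydrogenase, Mdh2, was instead highest in cDC2, at 634 ± 88.6 CPM in SS cDC2, 312 ± 97.1 in SS moDC, 282 ± 21.6 in SS cDC1 and 159 ± 15.2 in SS macrophages. After MI 1 of the 17 rose in macrophages (Ogdh, adjusted p = 0.00707), 1 in moDC (Fh1, adjusted p = 0.0335) and 0 passed in cDC1 or cDC2. Of all genes 7.39% differed in macrophages and 4.84% in moDC. Assembly factors (44 tested) changed in MI in 1 case, Cox14 in cDC2 (34.3 ± 3.55 against 52.2 ± 9.08 CPM, adjusted p = 0.0413), where 11.0% of all genes differed. In cDC1 against macrophages 8 assembly factors were higher and 1 lower in SS and 12 and 1 in MI. Both directions together were a smaller part of the 44 than the 42.8% and 45.4% of all genes that differed. By direction, the 12 higher in MI were a larger part than the 21.0% of all genes that were higher. The 1 lower was a smaller part than the 24.5% that were lower. The complex IV factor Coa5 was at 263 ± 5.07 against 126 ± 12.3 CPM in SS (adjusted p = 3.29e-10).

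Of 18 regulators of mitochondrial biogenesis tested, 1 was higher and 1 lower in cDC1 than in macrophages in SS, and 0 and 4 in MI. These are a smaller part of the 18 than the 42.8% (SS) and 45.4% (MI) of all genes that differed. In MI 24.5% of all genes were lower. Gabpa, the DNA-binding part of GABP, was lower in cDC1 in both states (57.2 ± 2.104 against 80.9 ± 13.2 CPM in SS, adjusted p = 0.00144, and 64.5 ± 4.75 against 89.3 ± 7.15 in MI, adjusted p = 0.00242). After MI Esrra, a nuclear receptor that acts on these genes, fell in cDC2 (27.7 ± 3.80 against 42.8 ± 4.33 CPM, adjusted p = 0.0479), and Lrpprc, which stabilises mitochondrial messenger RNA, rose in moDC (64.2 ± 4.15 against 41.3 ± 11.1, adjusted p = 0.0270). Each was the only 1 of the 18 called there, where 11.0% (cDC2) and 4.84% (moDC) of all genes differed.

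Glycolysis genes went the same way as the subunit genes in moDC against macrophages, but not after MI in macrophages. After MI 9 of 19 rose and 1 fell in macrophages, where only Cox5a rose among the 82 subunit genes, and 1 rose in moDC, 0 changed in cDC1, and 1 rose and 1 fell in cDC2. Of all genes 7.39% differed in macrophages, 4.84% in moDC, 8.87% in cDC1 and 11.0% in cDC2. Pyruvate kinase, Pkm, rose in macrophages from 489 ± 19.3 to 819 ± 117 CPM (adjusted p = 3.30e-04). In moDC against macrophages 13 of 19 were higher and 0 lower in SS, and 11 and 0 in MI, where 15 and 11 of the 82 subunit genes were higher. Of all genes 12.9% and 10.8% differed. In cDC1 against macrophages 11 were higher and 4 lower in SS, and 6 and 6 in MI (42.8% and 45.4% of all genes differed). In cDC1 against cDC2 2 were higher and 6 lower in SS, and 3 and 6 in MI (28.2% and 26.8% of all genes differed). Among these the lactate exporter Slc16a3 was lower (20.5 ± 3.61 against 233 ± 78.4 CPM in SS, adjusted p = 1.47e-07), and the phosphofructokinase gene Pfkp was higher (464 ± 39.5 against 224 ± 44.7, adjusted p = 8.41e-06). The lists were described by these counts, beside the shares of all genes given for each comparison.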

How the data were processed

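RNA-seq was measured in 31 libraries (8 groups). Per the labels' protocols, 4 ng of RNA was amplified with SMART-Seq v4 and read as 75 nt single reads. Per the submitters' processing notes, the genome was mm10 and the tools were TopHat2 (2.1.0), Trimmomatic (0.35), SAMtools (0.1.18) and FastQC (0.11.4); no source used here gives the counting tool, annotation or strand setting, so reads of overlapping genes (37 of the 82 members overlap another gene in GENCODE M21) could be shared or lost. The values deposited by the authors are whole-number counts for 24421 symbols, not normalised. The 5 entries without a gene stayed out of library sizes and tests: no feature was 6.42% to 16.9% and ambiguous 0.857% to 1.21%.

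edgeR 4.0.16 (R 4.3.3) gave TMM CPM and a robust quasi-likelihood test over all 31 libraries with a mean per group, after filterByExpr (minimum count 10; 13039 genes), with Benjamini-Hochberg adjustment over all tested genes and a threshold of 0.05. The model was also run on simulated counts for MI against SS in macrophages alone. Their dispersion was 0.05, below the common dispersion of 0.116 in the data. That run therefore does not show how often the tests err here. The design text calls the replicates independent but names no animals or pools, so p-values measure the spread between these samples. Reads without molecular identifiers are not independent molecules. Same-numbered libraries were counted as paired where every pair's deviations correlated above 0.1, which held for SS moDC and macrophages (0.119 to 0.203). The main fit had no replicate block, so the calls and p-values given for that comparison do not use the pairing. Blocks were run only as alternatives. No pair of replicates agreed within sampling noise (lowest chi-square over its degrees of freedom 10.8). Members and lists were chosen with earlier results of these data known. Named genes were members called for MI, the largest call per complex, direction and cell type comparison, isoform groups, core subunits and the highest and lowest of each complex, with up to 2 per partner list. Comparisons were MI against SS per cell type, cell types within a state, and an F test of the MI effect. The test of the MI effect in cDC1 against cDC2 was added after seeing the data. Alternatives were other scalings, DESeq2 1.42.0, other filters, fewer groups, replicate blocks, SS library pairs and leaving out each library. Not every called gene is reported by name here.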

Additional observations from a re-analysis of the deposited data

Results flagged for a closer look

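Of 336 sets of 4 libraries tested (named genes and complex sums by group), 29 had a highest or lowest library far from the other 3. Chance alone flags about 1 in 20. Several came from single libraries. SS cDC1 replicate 1 was highest for Cox6c (167 CPM), Ndufa6 (132), Uqcr11 (78.1) and Cox8b (2.76). SS moDC replicate 2 was highest for Cox6a1 (223), Ndufs7 (95.2) and Cox4i2 (4.62), and SS moDC replicate 4 lowest for Atp5sl (17.5). SS cDC2 replicate 2 was highest for Ndufb6 (62.8), Ndufa12 (57.7), Cox6a2 (3.09) and Cox4i2 (1.49), and SS cDC2 replicate 1 lowest for Cox7a1 (0.196). SS macrophage replicate 2 was highest for Ndufc2 (86.7), and SS cDC1 replicate 4 for Ndufs1 (63.9).

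After MI, cDC1 replicate 1 was lowest for the complex II sum (727), Atp5b (1296) and Ndufs1 (61.7). MI cDC1 replicate 4 was highest for Ndufa4 (155), Ndufa13 (84.0) and Cox8b (1.02), replicate 2 for Cox4i2 (0.296) and replicate 3 for Ndufa4l2 (0.371). MI macrophage replicate 2 was highest for Ndufa6 (45.3) and lowest for Atp5s (4.18), replicate 3 highest for Ndufs1 (63.5) and replicate 4 for Cox4i2 (4.04). MI moDC replicate 2 was highest for Atp5b (1199), and replicate 4 lowest for Atp5g3 (165).

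The MI effect differed between groups for 3 genes: Cox5a among the 4 cell types (adjusted p = 0.0282), and Uqcrfs1 (0.0272) and Sdhd (0.0313) between cDC1 and cDC2, all from edgeR.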

How the results depend on the processing

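Counts of the 82 genes called moved by over 1.5 times as follows, and the cause was not tested. With SS libraries 1 and 4 alone they were 3 (macrophages, MI against SS), 1 (moDC), 0 (cDC2), 8 (moDC against macrophages, SS), 1 (cDC1 against cDC2, SS), 0 (MI effect in cDC1 against cDC2) and 0 (F test). With SS libraries 2 and 3 alone they were 26 (cDC2, MI against SS), 4 (moDC against macrophages, SS), 1 (cDC2 against moDC, SS), 18 (cDC1 against cDC2, SS), 16 (cDC1 against macrophages, SS), 19 (MI effect in cDC1 against cDC2) and 3 (F test). With the replicate block they were 11 (cDC2, MI against SS), 9 (cDC2 against moDC, SS), 19 (moDC against macrophages, MI), 27 (cDC1 against cDC2, MI), 10 (MI effect in cDC1 against cDC2) and 4 (F test), and with the replicate block within state 24 and 23 (moDC against macrophages, SS and MI), 9 (cDC2 against moDC, SS) and 9 (MI effect in cDC1 against cDC2). Outside moDC against macrophages in SS not every same-number correlation was above 0.1, so those libraries were not taken as paired. The block moved no other count by that much; as a hint from the data and not the design, every library correlated best with its own number also in moDC against macrophages in MI and in cDC1 against cDC2 in both states. With only the compared groups in the fit the counts were 0 (cDC2, MI against SS), 4 and 29 (moDC against macrophages, SS and MI), 1 and 5 (cDC2 against moDC, SS and MI) and 25 (cDC1 against cDC2, MI). DESeq2 gave 1 (moDC, MI against SS), 4 (cDC2), 7 (cDC2 against moDC, SS), 5 (MI effect in cDC1 against cDC2) and 3 (F test). Upper-quartile factors gave 4 (cDC2, MI against SS) and 26 (cDC1 against cDC2, MI), no factors 1 (cDC2, MI against SS), 4 (cDC1 against cDC2, SS) and 1 (MI effect in cDC1 against cDC2), and no filter 0 (cDC2, MI against SS), 9 (moDC against macrophages, SS) and 1 (cDC2 against moDC, MI). Leaving out 1 library gave 1 to 2 (macrophages, MI against SS), 0 to 0 (moDC), 2 to 5 (cDC1), 0 to 4 (cDC2), 4 to 34 and 4 to 15 (moDC against macrophages, SS and MI), 1 to 8 and 0 to 2 (cDC2 against moDC), 4 to 15 and 7 to 18 (cDC1 against cDC2), 21 to 47 and 31 to 47 (cDC1 against macrophages), 0 to 9 (MI effect in cDC1 against cDC2) and 0 to 3 (F test). No called gene reversed. Over named calls and alternatives, 1516 values kept the call and 249 lost it. Depth of 9148624 to 16531349 reads leaves isoforms under 6 CPM with few counts. The sums by complex moved by under 1 SD within a group without scaling factors. The gap between SS and MI cDC2 in complex III nevertheless narrowed, as given above.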
